A study of Mus musculus with 6 samples.

Results

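The REEP family (receptor expression-enhancing proteins) was followed in dermal fibroblasts taken through adipocyte differentiation with and without Nelfb, a subunit of the negative elongation factor that holds RNA polymerase II near start sites. The 6 members, Reep1, Reep2, Reep3, Reep4, Reep5 and Reep6, were matched by symbol among the 17924 genes of the deposited table, and all 6 were among the 16252 genes with enough reads to be tested. The family was chosen by 1 measured value, the Reep6 level, whose CTL mean was 50.8 times the Nelfb-/- mean, so the change of Reep6 is described here without a test. The other members came in by name. CTL cells were Nelfb fl/wt or Nelfb wt/wt with Pdgfra-Cre, and Nelfb-/- cells were Nelfb fl/fl with Pdgfra-Cre, so that both groups carried the Cre. The labels do not say which CTL genotype each library had. All mice were on a C57BL/6J background, and fibroblasts from the dorsal skin of P0 pups spent 14 days in adipocyte differentiation medium. The Cre is driven by Pdgfra and deletes Nelfb only in cells of that lineage. The 6 libraries were 3 biological replicates of each group.

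REEP proteins sit in the membrane of the endoplasmic reticulum (ER) through hydrophobic hairpins that bend it, and they help to form its narrow tubules. Reep1, Reep2, Reep3 and Reep4 make up the branch whose proteins also bind microtubules, and Reep5 and Reep6 make up the other branch. In people, mutations of REEP1 and REEP2 cause hereditary spastic paraplegia, and mutations of REEP6 cause retinitis pigmentosa. The ER is also where lipid droplets of fat cells arise.

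Reep6 (ENSMUSG00000035504) lies on the plus strand at chr10:80329953-80336441 of the GRCm38 build. GENCODE lists 7 transcripts of Reep6, of which 6 are coding, and 3 of the coding transcripts hold an additional coding exon of 81 bases, exon 5, at chr10:80334713-80334793. The form with this exon is known from rod photoreceptors. A pair of the coding transcripts, 603 coding bases with exon 5 and 522 without it, is shown across the junction, since they differ only in the 27 codons of this exon. Exon 5 is in capitals, with the 30 bases before it and the 8 bases up to the stop codon in lower case.
Reep6 with exon 5: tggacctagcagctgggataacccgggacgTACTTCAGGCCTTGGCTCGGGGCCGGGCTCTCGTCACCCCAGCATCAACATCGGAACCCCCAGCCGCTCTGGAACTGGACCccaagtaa
Reep6 without exon 5: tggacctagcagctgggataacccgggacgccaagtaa
The values of the table are for whole genes, so that the forms could not be told apart and every Reep6 value below is for all 7 transcripts together.

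The unit of the values is CPM, a gene's reads for each 1e+06 reads on the listed genes, which is not corrected for gene length. Where 3 values follow each other, they are those of replicates 1, 2 and 3 of the group. The libraries held between 17.2 M and 29.4 M reads (M, 1e+06), and 3 reads, taken as the floor of detection, were worth 0.102 to 0.175 CPM. Genes were called changed where the limma test gave an adjusted p no higher than 0.05 and the change was 2-fold or more. Nelfb itself stood at 17.3, 19.6 and 22.3 CPM across the CTL libraries and at 5.50, 3.90 and 5.55 CPM across the Nelfb-/- ones (log2 change −1.99, SE 0.22, limma adjusted p = 0.0050). RNA of adipocyte markers was present in both groups. For Nelfb-/- cells after the same time in this medium, the paper reports no Oil Red O staining and reduced Plin1 and Pparg protein. The sum of the 9 markers ranged from 22890 to 37400 CPM over the CTL libraries and from 15742 to 23830 CPM over the Nelfb-/- ones, and of these Lep passed the limits as higher and none as lower. An unadjusted p under 0.05 was reached by 32.5% of all genes tested and by 6 of the 9. Besides Lep these were Adipoq, Plin1, Cfd and Pparg, with negative log2 changes, and Plin4, with a positive one, none of which passed the limit on adjusted p. Markers of other cells also moved with the genotype. Of all genes tested, 7.58% passed the limits as higher. The number of tested markers past the limits, all higher in Nelfb-/- cells, was 5 of 6 for macrophages, 5 of 5 for melanocytes, 3 of 3 for muscle, 2 of 3 for Schwann cells, 1 of 2 for keratinocytes, 0 of 5 for fibroblasts, 0 of 2 for neurons and 0 of 3 for endothelium. Of the last 3 lists, 2, 2 and 1 markers had an unadjusted p under 0.05. Summed macrophage markers went from 56.4–194 CPM with Nelfb to 334–1281 CPM without it, and the melanocyte sums from 1.22–1.43 to 30.3–72.1 CPM. Syt1, Rbfox3 and Krt15 were not analysed here. The part of these cells in the results was not tested, and in bulk RNA fewer cells of a type cannot be told apart from less RNA per cell.

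Reep6 was the most abundant member in CTL cells and the fourth of 6 in Nelfb-/- cells. It stood at 481, 384 and 226 CPM across the CTL libraries and at 5.83, 7.68 and 7.96 CPM across the Nelfb-/- ones. These values stood on 6657 to 10672 reads in CTL and 123 to 195 reads in Nelfb-/- libraries, well above the floor. The groups were far apart, and the lowest CTL library, replicate 3, remained many times above the highest Nelfb-/- library. The group means were 364 ± 129 and 7.16 ± 1.16 CPM (SD, n = 3 each), so that the Nelfb-/- mean was 1.97% of the CTL mean. The log2 change was −5.60. Within the groups the highest library was 2.13 times the lowest in CTL and 1.36 times in Nelfb-/- cells. These values chose the family and are a description.

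The adipocyte marker Adipoq, which encodes adiponectin, stood at 1768, 1857 and 698 CPM across the CTL libraries and at 488, 802 and 630 CPM across the Nelfb-/- ones, and its groups overlapped (log2 change −1.07, limma adjusted p = 0.14). Reep6 was 27.2%, 20.7% and 32.4% of Adipoq in the CTL libraries and 1.196%, 0.958% and 1.26% in the Nelfb-/- libraries. The Nelfb-/- means of Plin1, Fabp4, Lpl, Cfd and Pparg were also lower, at 52.0%, 51.3%, 68.3%, 18.9% and 69.9% of the CTL means. Of these, the groups of Plin1, Fabp4 and Pparg did not overlap. The means of Lep and of Cidec and Plin4, lipid droplet proteins of fat cells, were not lower. As a share of Plin1, Reep6 was 41.7%, 32.1% and 28.9% in the CTL libraries and 2.04%, 1.08% and 1.26% in the Nelfb-/- ones. Reep6 was 16.4%, 12.5% and 12.8% of Cidec in the CTL libraries and 0.374%, 0.208% and 0.272% in the Nelfb-/- ones. As a share of Plin4 it was 52.4%, 28.97% and 26.9% in the CTL libraries and 0.345%, 0.454% and 0.453% in the Nelfb-/- ones. All these ratios hold the Reep6 values and are a description. CTL replicate 3 had the lowest Reep6 and the lowest Adipoq of its group, and the highest ratio of Reep6 to Adipoq.

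Reep5, the closest relative of Reep6 in the family by branch, is a widely expressed tubule protein known for organising the sarcoplasmic reticulum of heart muscle. Reep5 (ENSMUSG00000005873, chr18:34344885-34374070, minus strand) stood at 176, 169 and 222 CPM across the CTL libraries and at 104, 212 and 213 CPM across the Nelfb-/- ones. Nelfb-/- replicate 1 was the lowest of all 6 libraries, and the other 2 Nelfb-/- libraries lay inside the CTL range. The means were 189 ± 28.9 and 176 ± 62.9 CPM (SD, n = 3 each), and the difference was within the spread of the replicates (log2 change −0.17, SE 0.31, 95% interval −0.90 to 0.57, limma adjusted p = 0.75).

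Reep3 and Reep4 are known to clear ER membrane from chromosomes during cell division. Reep3 (ENSMUSG00000019873, chr10:67009189-67096945, minus strand) stood at 180.5, 199 and 171 CPM across the CTL libraries and at 168, 121 and 133 CPM across the Nelfb-/- ones. Each Nelfb-/- library lay below each CTL library, narrowly for replicate 1. The log2 change was −0.39 (SE 0.17, 95% interval −0.79 to 0.0040), with an unadjusted p of 0.052 and an adjusted p of 0.16 by limma, and so did not pass the limit. Without Nelfb-/- replicate 1 the adjusted p was 0.047, at a log2 change of −0.53, and Reep3 remained short of 2-fold. Groups that did not overlap, with Nelfb-/- cells lower, were seen for 16.1% of all genes tested, and Reep3 was the only one of Reep1 to Reep5 among them. Gm31763, on the opposite strand, shares 941 exon bases with Reep3, 11.3% of its exon sequence, and measured between 0.0816 and 1.73 CPM over the 6 libraries. The span of Reep3 also overlaps that of Jmjd1c, a gene of the demethylase family on the opposite strand, by 821 bases, with 0 shared exon bases. Of the stretches of 50 bases in Reep3 transcripts, 13.9% also occur, on either strand, in transcripts of other genes, none of them a REEP gene. Bases shared with Gm31763 can count in this share. For the other members 0 did. Whether reads were counted by strand is not given in the sources used here.

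Reep4 (ENSMUSG00000033589, chr14:70545251-70548933, plus strand) stood at 20.9, 27.0 and 19.5 CPM across the CTL libraries and at 25.04, 17.8 and 18.0 CPM across the Nelfb-/- ones. The groups overlapped, and each had 1 library above the other 2 (22.5 ± 3.99 and 20.2 ± 4.15 CPM, SD, n = 3 each). The log2 change was −0.16 (SE 0.21, 95% interval −0.66 to 0.34, limma adjusted p = 0.65).

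Reep1 and Reep2, the members best known from neurons, were scarce. Reep1 (ENSMUSG00000052852, chr6:71707561-71810710, plus strand) stood at 2.84, 3.64 and 16.3 CPM across the CTL libraries and at 2.75, 8.21 and 6.77 CPM across the Nelfb-/- ones. It varied more within CTL than between the groups, since CTL replicate 3 was 5.74 times CTL replicate 1. The log2 change was −0.05 (SE 0.74, 95% interval −1.82 to 1.72, limma adjusted p = 0.97), an interval that spans changes from 0.284-fold to 3.29-fold. Without CTL replicate 3 the log2 change was 0.73, with the opposite sign (limma adjusted p = 0.34).

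Reep1 was higher in CTL replicate 3 and Nelfb-/- replicates 2 and 3 than in the other 3 libraries, and so were the summed fibroblast markers, although the order within these sets differed. The fibroblast sums were 3148, 2751 and 11107 CPM for the CTL libraries and 5358, 22145 and 23878 CPM for the Nelfb-/- ones, most of it from Col1a1 and Col3a1. Dcn, of the same list, stood at 467, 501 and 310 CPM in the CTL libraries and 348, 404 and 440 CPM in the Nelfb-/- ones, lowest in CTL replicate 3. Reep5 was higher in the same 3 libraries as Reep1 was. The summed neuron markers were 8.34, 7.98 and 10.5 CPM, and 8.16, 40.0 and 33.3 CPM, in the same order. Tubb3 made up most of the sum in those 3 libraries, whereas Snap25 was at 5.64, 5.83 and 0.680 CPM in the CTL libraries and at 0.664, 0 and 0.0408 CPM in the Nelfb-/- ones. Their part in the Reep1 and Reep5 values was not tested.

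Reep2 (ENSMUSG00000038555, chr18:34840589-34847463, plus strand) stood at 1.13, 1.87 and 2.41 CPM across the CTL libraries and at 1.90, 1.22 and 1.80 CPM across the Nelfb-/- ones. The groups overlapped. These values stood on only 21 to 71 reads, and the log2 change was −0.09 (SE 0.38, 95% interval −1.005 to 0.82, limma adjusted p = 0.89), an interval that spans changes from 0.498-fold to 1.76-fold.

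With both limits, 11.2% of all genes tested were called, 3.64% as lower and 7.58% as higher. Of Reep1 to Reep5, 0 of 5 were called by limma, and 0 had an unadjusted p under 0.05, beside 32.5% of all genes tested. With library weights Reep1 was called (log2 change 1.05, adjusted p = 0.0042), from a fit whose weights had not converged. The median log2 change over Reep1 to Reep5 was −0.16, beside 0.068 over all genes tested.

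**Figure D1:**
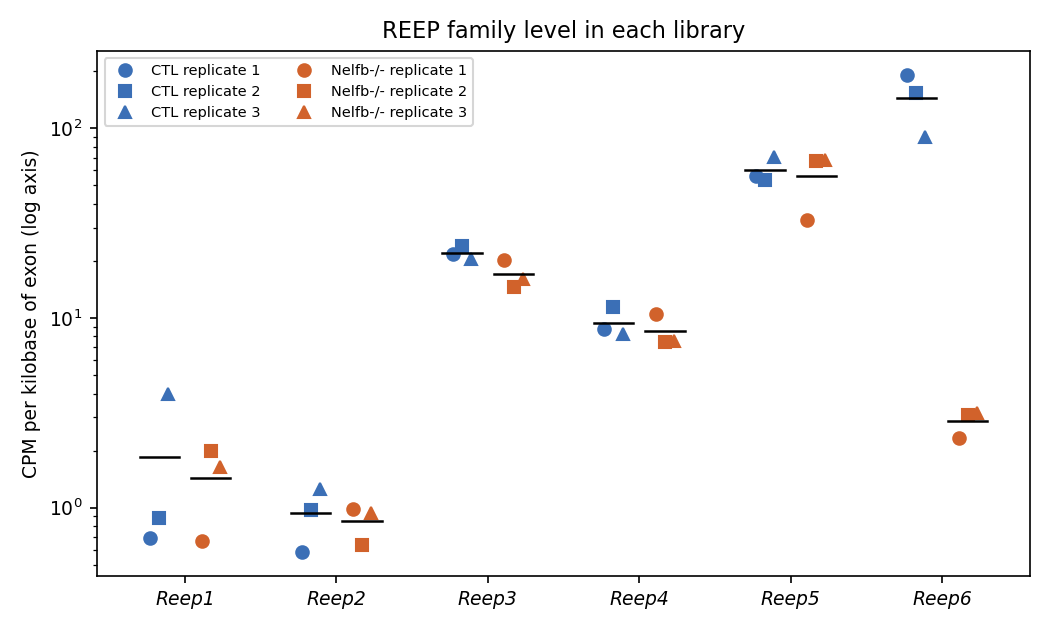
Level of each REEP gene in each library, in CPM per kilobase of exon on a log axis, with 1 point per library (blue, CTL; orange, Nelfb-/-) and a bar at the mean of the 3 replicates. The 3 Nelfb-/- points of Reep6 lie far below its CTL points (means 2.86 and 145), whereas the points of Reep1, Reep2, Reep4 and Reep5 overlap between the groups.

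To compare members with each other, CPM was divided by the length of the merged exons. In CTL cells Reep6 stood first with a mean level of 145 CPM per kilobase (90.3 to 192), followed by Reep5 at 60.04 (53.7 to 70.6), Reep3 at 22.1, Reep4 at 9.46, Reep1 at 1.85 and Reep2 at 0.936 CPM per kilobase. Reep1 and Reep2 were not separate in their libraries, and each other neighbour in this order was. In Nelfb-/- cells Reep5 stood first at 55.9 CPM per kilobase (32.9 to 67.7), followed by Reep3 at 16.98, Reep4 at 8.52, Reep6 at 2.86 (2.33 to 3.17), Reep1 at 1.44 and Reep2 at 0.850 CPM per kilobase. Here too the neighbours were separate except for Reep1 and Reep2. Reep6 thus moved from the first place to the fourth, and the other 5 members kept their order among themselves. The length of the longest transcript in place of the merged exons gave the same orders.

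The 6 levels summed to 280, 244 and 195 CPM per kilobase in CTL and 67.7, 95.02 and 97.0 in Nelfb-/- replicates 1, 2 and 3. Most of that gap was Reep6. Without Reep6 the sums were 87.7, 90.9 and 105 CPM per kilobase in CTL and 65.4, 92.0 and 93.8 in Nelfb-/- cells, and the groups overlapped. Reep6 made up 68.6%, 62.7% and 46.3% of the family sum in the CTL libraries and 3.44%, 3.23% and 3.27% in the Nelfb-/- libraries. The share of Reep5 was 26.1% ± 8.85 in CTL and 63.0% ± 12.5 in Nelfb-/- cells, and that of Reep3 was 9.40% ± 1.45 and 20.6% ± 8.13 (SD, n = 3 each). Shares sum to the whole, so that those of Reep5 and Reep3 rise when Reep6 is low.

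**Figure D2:**
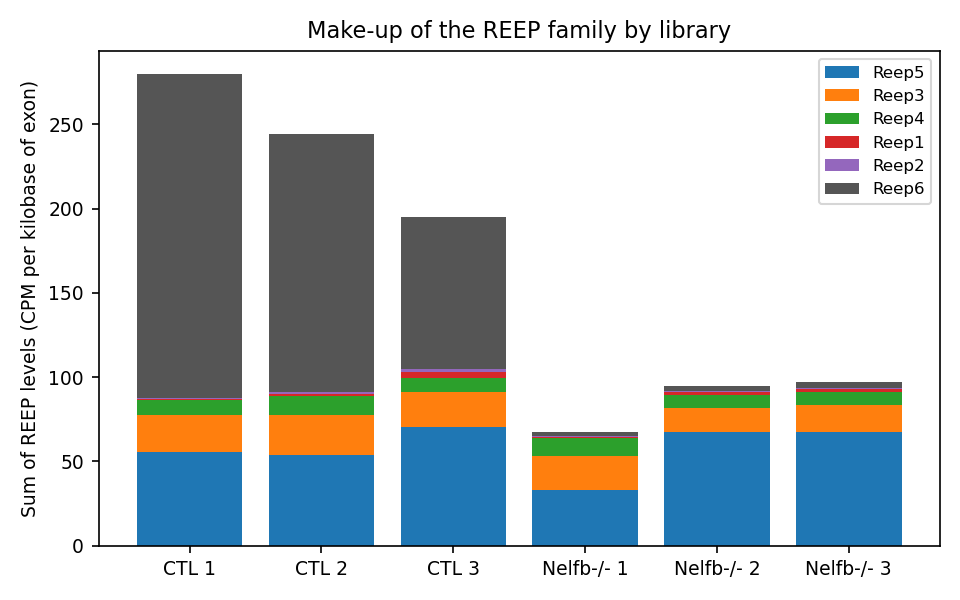
Sum of the 6 REEP levels in each library in CPM per kilobase of exon, stacked by gene. The Reep6 part (dark grey) is 46.3% to 68.6% of the bar in the CTL libraries and 3.23% to 3.44% in the Nelfb-/- libraries, and the rest of the bar overlaps between the groups.

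The neighbours of Reep6 on chromosome 10 were then compared. Pcsk4, which encodes a proprotein convertase best known from sperm, lies head to head with Reep6 on the minus strand (ENSMUSG00000020131, chr10:80321283-80329498), with 454 bases between them. Pcsk4 stood at 23.7, 22.7 and 13.1 CPM across the CTL libraries and at 3.94, 3.49 and 2.82 CPM across the Nelfb-/- ones. Its groups were separate, and CTL replicate 3 was the lowest CTL library for both genes. Pcsk4 was lower in Nelfb-/- cells (19.8 ± 5.86 and 3.41 ± 0.564 CPM, SD, n = 3 each; log2 change −2.49, SE 0.29, limma adjusted p = 0.0057). Pcsk4 was 4.92%, 5.92% and 5.78% of Reep6 in CPM in the CTL libraries and 67.5%, 45.5% and 35.4% in the Nelfb-/- libraries, a ratio that holds the Reep6 values the family was chosen on and is given as a description.

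Of the genes with a row within 50 kb of Reep6, Pcsk4 was the only one called lower. Apc2, a relative of the tumour suppressor Apc, was called higher, with means of 1.05 ± 0.297 CPM with Nelfb and 2.701 ± 0.498 CPM without it (SD, n = 3 each; log2 change 1.34, SE 0.33, limma adjusted p = 0.040). This call was lost in 8 of 16 other ways of processing the values, among them leaving out CTL replicate 1, CTL replicate 2 or any of the Nelfb-/- replicates (adjusted p between 0.068 and 0.13). Adamtsl5, a secreted protein of the extracellular matrix encoded 2668 bases beyond the end of Reep6, measured 24.4 ± 7.03 and 49.0 ± 15.3 CPM (SD, n = 3 each), and its groups were separate (log2 change 0.997, SE 0.29, limma adjusted p = 0.063). It was called once CTL replicate 3 was left out (log2 change 1.22, adjusted p = 0.030). The RNA-binding proteins Dazap1 and Mex3d had log2 changes of −0.09 and −0.76 (limma adjusted p = 0.67 and 0.066), the ribosomal protein Rps15 of −0.56 (adjusted p = 0.10) and 2310011J03Rik of 0.04 (adjusted p = 0.93). Gm15122 had too few reads to be tested.

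**Figure D3:**
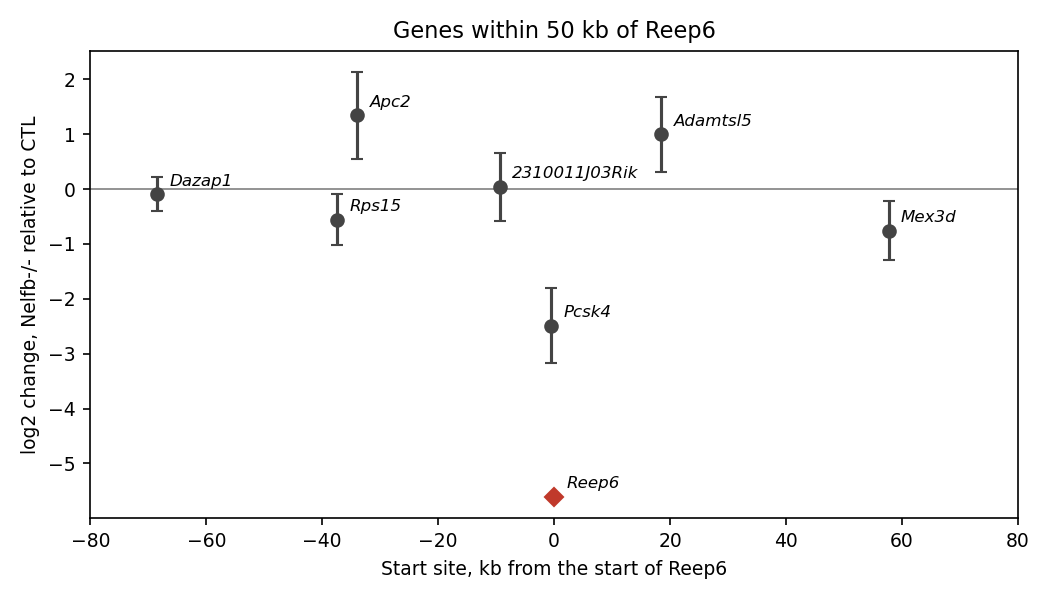
Log2 change of each tested gene within 50 kb of Reep6, against the distance of its start site from that of Reep6 in kb, with 95% intervals from limma for the neighbours (circles) and none for Reep6 (diamond). Pcsk4, whose start site is 0.455 kb away, lies at −2.49, and the other neighbours lie between −0.76 and 1.34.

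The tested genes whose profile over the 6 libraries was nearest to that of Reep6 were found by the root mean square difference of log2 values, each gene centred on its own mean. The 5 nearest were Gm13398 (0.469), Gm9899 (0.516), Plin5 (0.572), Aspg (0.597) and Hrk (0.622). The places of Gm13398, Gm9899 and Hrk depend on the pseudocount, since they were at or near 0 in Nelfb-/- cells. Over the alternatives the log2 change of Gm13398 ranged from −5.79 to −1.15, that of Gm9899 from −5.87 to −2.25 and that of Hrk from −5.38 to −0.94, beside −5.05 to −4.27 for Plin5. The range of Hrk is over 13 alternatives, since it had too few reads to be tested when a CTL library was left out. Since the pattern of Reep6 chose them, their levels are a description. Plin5, a perilipin of the lipid droplet surface, stood at 73.6, 57.6 and 60.6 CPM across the CTL libraries and at 1.33, 3.43 and 2.65 CPM across the Nelfb-/- ones. Aspg, an asparaginase, stood at 34.4, 54.5 and 22.6 CPM across the CTL libraries and at 0.806, 0.466 and 0.326 CPM across the Nelfb-/- ones. Gm13398 and Hrk, a BH3-only regulator of apoptosis, were listed at 0 in all 3 Nelfb-/- libraries and lay between 0.680 and 1.35 CPM in CTL, and Gm9899 lay at or below the floor in Nelfb-/- cells.

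Other genes that shape or serve the ER were then counted over 7 lists. Of the 63 tested genes, 3 genes were called (4.76%, beside 11.2% of all genes tested), and the median log2 change was −0.10. Of the same genes, 25 had groups that did not overlap, 39.7% beside 38.1% of all genes tested.

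Of the 17 genes that shape ER tubules, 1 was called, 10 had groups that did not overlap (58.8%, beside 38.1% of all genes tested), and the median log2 change was −0.08. Rtn2, a reticulon whose protein also bends tubules through hairpins, stood at 14.6, 10.4 and 8.50 CPM across the CTL libraries and at 3.32, 2.97 and 3.26 CPM across the Nelfb-/- ones. The groups were separate, and Rtn2 was lower in Nelfb-/- cells (log2 change −1.76, SE 0.25, limma adjusted p = 0.0091). Without Nelfb-/- replicate 3 its adjusted p was 0.052. An adjusted p no higher than 0.05, whatever the fold, was reached by 15.8% of all genes tested, by 11 of the 63 ER genes (17.5%) and by 5 of the 17 tubule genes. Those under 2-fold are named here after their values were seen. The reticulon Rtn3 stood at 408, 422 and 279 CPM across the CTL libraries and at 229, 170.3 and 171 CPM across the Nelfb-/- ones (log2 change −0.95, limma adjusted p = 0.035). Retreg2, an ER-phagy regulator, had a log2 change of −0.71 (limma adjusted p = 0.045). Atl1, an atlastin that fuses tubules, and Lnpk, which stabilises their junctions, had log2 changes of 0.71 and 0.58 (limma adjusted p = 0.047 and 0.040), and missed the limit with median-of-ratios scaling (0.059 and 0.0503) and quantile normalization (0.12 and 0.060).

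The 4 ER-phagy receptors counted next were those outside the tubule list. That list held Retreg1, Retreg2 and Retreg3 (log2 changes −0.84, −0.71 and −0.08). None of the 3 sheet genes, these 4 receptors, 11 translocon and signal peptidase genes and 23 chaperone and stress genes was called by limma. In this order 1, 0, 0 and 5 of them had an unadjusted p under 0.05, beside 32.5% of all genes tested. The largest log2 changes were 0.96 for the sheet protein Ckap4 (adjusted p = 0.26), −0.63 for the ER-phagy receptor Calcoco1 (0.19), 0.77 for Ssr1 of the translocon-associated complex (0.25) and −1.22 for the stress-response factor Ddit3 (0.12). Rrbp1, which binds ribosomes to sheets, had a log2 change of 0.69 (limma adjusted p = 0.038), and the stress-response genes Xbp1 and Herpud1 of −0.76 and −0.93 (limma adjusted p = 0.033 and 0.011). Ddit3 was called without Nelfb-/- replicate 1 (log2 change −1.62, limma adjusted p = 0.046). The median log2 change was 0.69 for the sheet genes, −0.05 for these 4 ER-phagy receptors, 0.07 for the translocon and −0.32 for the chaperone and stress genes.

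Of the ER genes for lipid droplet formation, 3 were tested and each had all Nelfb-/- libraries below all CTL libraries, as for 16.1% of all genes tested (median log2 change −0.77). Tmem159, which encodes the seipin partner LDAF1, stood at 37.0, 43.0 and 30.8 CPM across the CTL libraries and at 20.6, 14.5 and 16.97 CPM across the Nelfb-/- ones, and was called lower (log2 change −1.09, SE 0.20, limma adjusted p = 0.017). It lost the call once CTL replicate 1 or 2, or Nelfb-/- replicate 2 or 3, was left out (adjusted p between 0.059 and 0.080). Bscl2, which encodes seipin, had a log2 change of −0.77 (limma adjusted p = 0.019), and Fitm2 had a log2 change of −0.55 (adjusted p = 0.15). The 8 genes named with an adjusted p within the limit and a change under 2-fold, Rtn3, Retreg2, Atl1, Lnpk, Rrbp1, Xbp1, Herpud1 and Bscl2, had a limma adjusted p of 0.052 to 0.18 without Nelfb-/- replicate 3, and those other than Herpud1 also missed the limit without CTL replicate 1 or CTL replicate 2 (0.083 to 0.16). Rtn3 passed both limits without CTL replicate 3 or Nelfb-/- replicate 1 (log2 changes −1.14 and −1.09), with median-of-ratios scaling (−1.02) and with library weights (−1.25).

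REEP proteins were named for bringing receptors to the cell surface, and some are known to act on the alpha adrenergic receptors of the Adra2 group. Of the 7 genes listed for receptor transport, Rtp4 and Adra2a were tested. Adra2a, the member of that group that restrains lipolysis in fat cells, stood at 1.94, 1.87 and 2.82 CPM across the CTL libraries and at 20.2, 37.9 and 33.6 CPM across the Nelfb-/- ones. Each Nelfb-/- library was above each CTL library, as for 22% of all genes tested, and Adra2a was called higher (log2 change 3.74, SE 0.30, limma adjusted p = 0.0033). Rtp4, a transporter protein for receptors, stood at 19.5, 4.11 and 16.8 CPM across the CTL libraries and at 60.1, 46.8 and 38.6 CPM across the Nelfb-/- ones, also without overlap, and was not called (log2 change 2.10, SE 0.59, limma adjusted p = 0.057). Rtp4 was called without CTL replicate 2 (log2 change 1.40, adjusted p = 0.041).

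**Figure D4:**
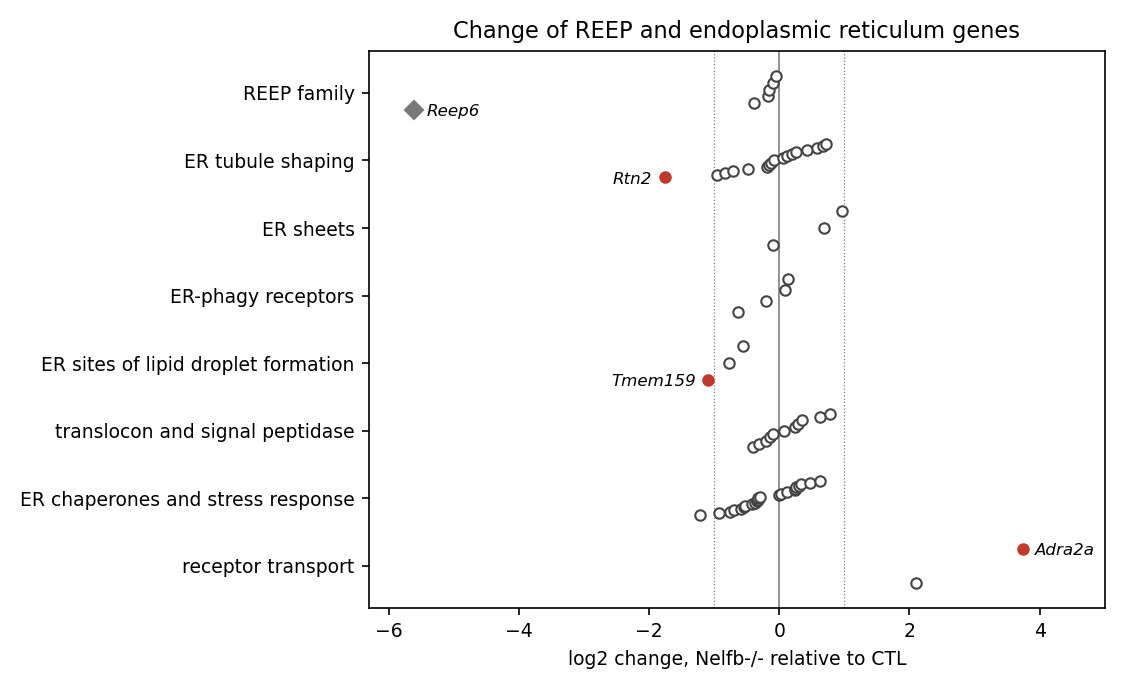
Log2 change of the REEP genes and of the tested genes of 7 ER lists, with 1 point per gene, filled in red where the gene passed both limits and open where it did not. Dotted lines mark a 2-fold change in either direction. Reep6 (grey diamond, no test) lies at −5.60, Rtn2, Tmem159 and Adra2a are filled, and the other REEP genes lie between −0.39 and −0.05.

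A RefSeq promoter window was read for Reep1 (chr6:71707431-71707730, GRCm38, plus strand). Searched on both strands, it held 2 matches to the GC box GGGCGG, which occurs in 35.7% of the 32851 promoter windows of the same length. The PPAR-RXR direct repeat of AGGTCA with 1 base between the copies (0.0396% of windows), TTGCNNAA of C/EBP (10.8%), CCAAT (37.4%) and TATAAA (13.6%) were not found in it.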

How the data were processed

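RNA from 6 cultures, 3 CTL and 3 Nelfb-/-, was sequenced. The submitters' processing notes name STAR 2.7, Partek 9.0.20.0202 and the mm10 build, and the paper's methods also name DESeq2. How reads were counted is not given in the sources used here. The values the authors deposited are CPM, since each column summed to 1e+06 after an added 0.0001 was subtracted. The lowest values rose in steps that gave the depth of each library, but only about 70% of values up to 20 reads were whole (within 0.02 reads), so no count test was run. All 6 value columns were used.

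CPM was scaled to a common depth of 22.3 M reads (M, 1e+06). A gene was tested if its mean reached 10 reads (0.448 CPM), which held for 16252 genes. The test was that of limma 3.58.1 in R 4.3.3, run on log2(value + 1 read), two-sided, with an abundance trend and Benjamini-Hochberg adjustment over all of them. Fold changes are on this scale, which understates those of low genes. Limits were an adjusted p of at most 0.05 and 2-fold. The code was tested on simulated data, and 16 alternatives were tried. IDs, positions and exon lengths came from GENCODE M21.

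Named genes were the REEP members, Nelfb, genes of the ER lists that passed the limits and the largest change of each list, genes within 50 kb of Reep6 or overlapping a member, and the 5 nearest profiles, with exceptions stated. Members, lists and tests were chosen with earlier results of these data known. Replicate numbers were not used to pair the libraries in the main fit, since the labels do not say that they do. Protein sequences were not used here.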

Additional observations from a re-analysis of the deposited data

How the results depend on the processing

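Under 16 alternatives the log2 change of Reep6 lay between −5.91 and −5.37, that of Reep3 between −0.53 and −0.29 and that of Reep4 between −0.32 and −0.016. Pcsk4 (−2.997 to −2.20) and Adra2a (3.26 to 4.08) were called in all 16. With library weights, whose estimation stopped before it converged and gave Nelfb-/- replicate 3 a weight of 38.8 beside 0.132 for CTL replicate 3, 4513 genes were called instead of 1824 and 13 ER genes instead of 3. The REEP genes past the limits were then 2, Reep1 beside Reep6, whose own change chose the family and is no test. Reep1 (1.05, limma adjusted p = 0.0042), Reep2 (0.40), Reep5 (0.28) and Dazap1 (0.046) then had the opposite sign. Leaving out 1 library gave 426 (without Nelfb-/- replicate 3) to 2479 (without CTL replicate 3) called genes and 1 to 5 ER genes, and none of Reep1 to Reep5 was called by limma. The log2 changes then ranged from −0.52 to 0.73 for Reep1, from −0.39 to 0.14 for Reep2, from −0.34 to 0.18 for Reep5 and from −0.14 to 0.25 for 2310011J03Rik. The sign turned for Reep1 without CTL replicate 3 (0.73) or Nelfb-/- replicate 1 (0.43), for Reep2 without CTL replicate 3 (0.14) or Nelfb-/- replicate 2 (0.098), for Reep5 without Nelfb-/- replicate 1 (0.18), and for 2310011J03Rik with median-of-ratios scaling (−0.026), quantile normalization (−0.074) and without CTL replicate 2 (−0.14), Nelfb-/- replicate 2 (−0.078) or Nelfb-/- replicate 3 (−0.023). The cause was not tested.

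With the replicate number as a block, 2175 genes were called, and of the genes named here Apc2 lost its call (adjusted p = 0.069) and Rtp4 gained one (0.028). Of the genes past the limit on adjusted p alone, Atl1 (0.089), Lnpk (0.084), Rrbp1 (0.072) and Retreg2 (0.061) missed it with the block. Without a trend in the variance, Retreg2 (0.071), Lnpk (0.057) and Xbp1 (0.0502) missed it, and with a pseudocount of 1 CPM Atl1 (0.051) did. The labels do not say whether same-numbered libraries share more than a number. The correlations of same-numbered libraries, each centred within its group, were 0.52, −0.39 and 0.52. Those of differently numbered libraries lay between −0.63 and 0.54, and these values cannot decide it. Reep2 rests on 21 to 71 reads and Reep1 varied 5.74-fold within CTL, and the intervals of both changes are wide.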
